A study of Drosophila melanogaster with 5 samples.

Results

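Large polysomes, the sucrose gradient fractions in which an mRNA carries 7 or more ribosomes, were compared gene by gene with all polysomes, which hold small polysomes (2 to 6 ribosomes) and large polysomes together. The measure was the ribosome footprint density of each annotated coding sequence (CDS), given as RPKM, in which reads are scaled by CDS length and by all reads mapped to the genome. For each gene the longest CDS was taken, and genes with 10 or more RPKM in either library were kept. These were 5807 of the 13967 genes in the CDS table. Of them 5093 reached 10 RPKM in both libraries, 154 in large polysomes alone and 560 in all polysomes alone. The last genes inside the limit were CG4022 (9.79 RPKM in large polysomes and 10.02 RPKM in all polysomes), CG15896 (10.02 and 8.44 RPKM) and CG11560 (10.03 and 9.97 RPKM), and the first outside it were Hsp26 (2.43 and 9.999 RPKM), PebIII (9.999 and 0 RPKM) and CG12001 (9.17 and 9.997 RPKM).

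A ribosome bound to an mRNA protects a short stretch of it from nuclease, and sequencing these footprints shows which mRNAs are being read and how densely. A short CDS offers room for few ribosomes, so short mRNAs sediment with small polysomes however often they are initiated, whereas a long CDS can carry many. Among mRNAs of like length, the number of ribosomes depends on how often initiation happens and how long elongation takes. An mRNA is therefore found in large polysomes partly because of its length and partly because of how it is translated.

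Both libraries came from S2 cells, an embryonic Drosophila line with blood cell character, grown in Schneiders medium with 10% FBS, given no treatment other than the cycloheximide that holds ribosomes in place, and footprinted with RNase I. The large polysome library came from the first experiment, together with a small polysome library. The all polysome library was depleted of rRNA and came from another experiment. Each fraction has 1 library, so the spread between cultures is unknown, no test of the fractions was possible, and fraction, rRNA depletion and experiment cannot be told apart in any difference given here. The intervals cover counting error only, with reads taken as independent of each other. The other footprint library, an extensive small polysome replicate, and the library of total cytoplasmic mRNA were used for context.

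The large polysome values corresponded to 2625000 mapped reads and the all polysome values to 3190000, of which 72.0% and 73.1% lay in the longest CDS of each gene. The genes kept had a median of 132 reads in large polysomes and 178 in all polysomes. Of the blood cell markers, Pxn had 765 RPKM in large polysomes and 702 RPKM in all polysomes, and srp had 196 and 158 RPKM. The other markers of that list were low, with eater at 11.8 and 9.72 RPKM and Cg25C, vkg and He each under 6 RPKM, and Hml was at 0 in both. Of 8 markers of other cell types, vas, Yp1 and nos were at 0 in both libraries, Yp2 and n-syb had 0 reads in large polysomes and 1 read each in all polysomes, Mhc and up stayed under 5 RPKM, and the neuronal gene elav had 12.1 RPKM in large polysomes and 8.85 RPKM in all polysomes.

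The ratio of large to all polysome RPKM climbed with CDS length and then levelled off. Reads were present in both libraries for 5793 genes, whose median ratio was 0.911. In the shortest of 20 equal bins of length, with a median CDS of 288 nt, the median ratio was 0.444. It was 0.530 at 441 nt, 0.643 at 549 nt, 0.763 at 657 nt, 0.865 at 762 nt and 0.935 at 990 nt. From the bin at 1098 nt to the one at 6441 nt it stayed between 0.939 and 1.05, with no further climb. Spearman's rho between length and ratio, as a description across genes that share both libraries, was 0.41 over the 1917 genes with a CDS under 1000 nt and -0.02 over the 3876 longer ones. A ratio above 1 was found for 13 of 165 genes encoding up to 100 amino acids (7.88%) and for 411 of 933 genes encoding more than 1000 (44.1%). The genes also scattered less as they got longer, the SD around the trend being 0.98 on the log2 scale in the shortest bin and 0.38 in the longest.

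**Figure D1:**
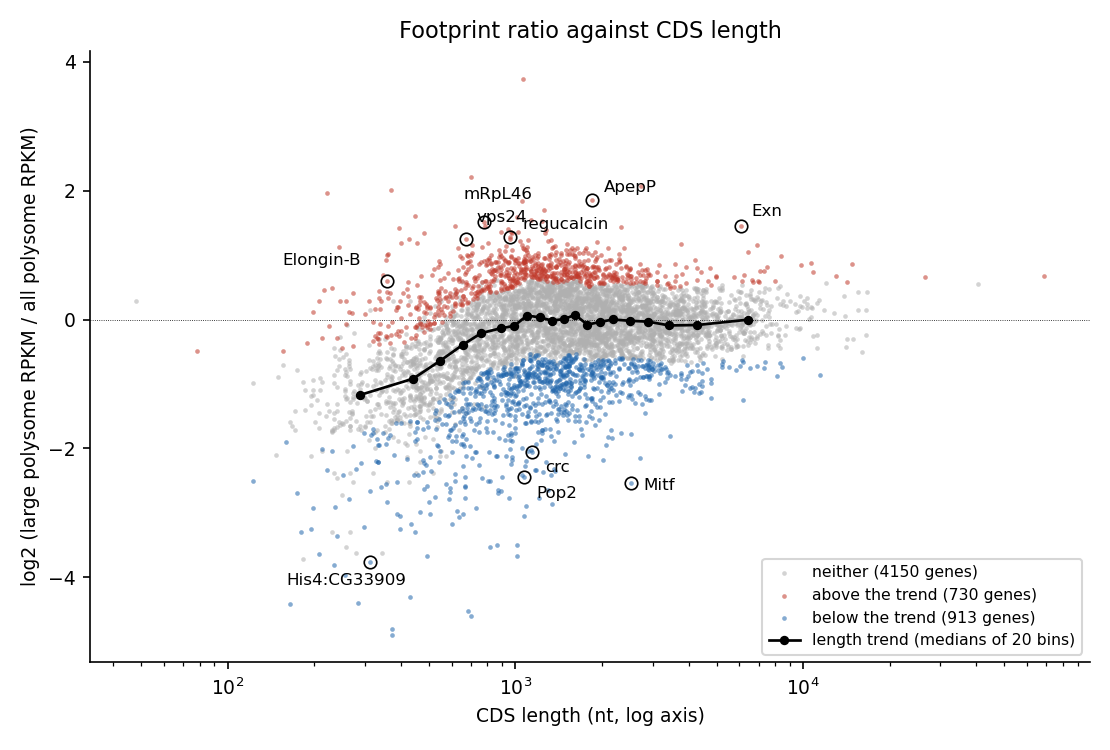
Each point is 1 of 5793 genes, with its CDS length in nt (log axis) on the x axis and the log2 ratio of large to all polysome RPKM on the y axis. The black line joins the medians of the 20 length bins and climbs from a ratio of 0.444 to about 1 at 1098 nt, after which it is flat, and the 730 genes above it (red) and 913 below it (blue) are found in each of the 20 bins.

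To take length out, each gene's departure was computed as its log2 ratio minus the trend drawn through the bin medians. The trend is held flat outside the first and last bin medians. A gene was counted as above the trend when it departed by 1.5-fold or more (0.585 on the log2 scale) and the exact 95% binomial counting interval of its ratio lay wholly above the trend, and as below in the same way. Above the trend were 730 genes, which is 12.6% of those compared, and below it were 913, which is 15.8%. The departures had an SD of 0.68 and quartiles of -0.41 and 0.37. Genes encoding up to 100 amino acids were above in 21 of 165 cases and below in 23. The share above was 17.2% among genes encoding more than 100 and up to 250 amino acids, 15.8% in the next class up to 500, 10.1% in that up to 1000 and 5.47% among longer ones. The shares below were 14.96%, 22.3%, 14.3% and 6.97% in the same classes. Of the genes with a symbol other than a bare CG or CR number, 443 were above and 431 below.

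ApepP, an aminopeptidase that cleaves ahead of proline, stood farthest above the trend among named genes with 100 or more reads. Its CDS lies on 2L:16908316-16910157 (coordinates of the FlyBase Release 5 genome) and had 17.2 RPKM in large polysomes and 4.77 RPKM in all polysomes (83 and 28 reads), a ratio of 3.60 (95% counting interval 2.32 to 5.74) where the length trend gave 0.957, which is a departure of 3.77-fold. Its density was lower still in small polysomes, at 0.592 RPKM in the initial library and 1.01 RPKM in the extensive one. mRpL46 (3L:1777516-1778292), a protein of the mitochondrial ribosome, had 42.7 RPKM in large polysomes and 14.9 RPKM in all polysomes, a ratio of 2.86 (95% counting interval 1.92 to 4.32) where the length trend gave 0.871. Eip71CD (3L:15504219-15506175), an ecdysone-induced methionine sulfoxide reductase, had 47.0 RPKM in large polysomes and 17.1 RPKM in all polysomes, a ratio of 2.74 (95% counting interval 1.90 to 4.02) where the length trend gave 0.874. Each of the 3 intervals lies wholly above the trend, on fewer than 100 reads per library. All polysomes hold the large polysomes too, which bounds the ratio that fraction alone could give. A weighted sum described below gives large polysomes a weight of 0.669. At that weight the large polysome term alone exceeds the measured all polysome density in each of these 3 genes. The part of differences between experiments in these ratios was not tested. The intervals take reads as independent, and would be too narrow where reads pile up on part of a CDS. For ApepP 83 reads covered a fraction of 0.329 of the CDS in large polysomes and 28 reads 0.347 in all polysomes.

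Several of the genes farthest above encode small proteins whose mRNAs would by length be poor in large polysomes. Elongin-B (3R:16404400-16405178), a ubiquitin-like subunit of the elongin complex with a CDS of 357 nt, had 132 RPKM in large polysomes and 87.8 RPKM in all polysomes, a ratio of 1.51 (95% counting interval 1.15 to 1.98) where the length trend gave 0.485. vps24 (3R:135695-136553), an ESCRT-III subunit of membrane sorting, had 103 RPKM in large polysomes and 43.4 RPKM in all polysomes and a departure of 1.61 on the log2 scale. Its 182 reads in large polysomes covered a fraction of 0.519 of the CDS, and its 93 reads in all polysomes 0.887. HmgZ (2R:17585627-17586045), a DNA-binding HMG box protein, had 228 RPKM in large polysomes and 167 RPKM in all polysomes (departure 1.53). Sirup (2L:7999113-7999550), an assembly factor of succinate dehydrogenase, had 236 RPKM in large polysomes and 175 RPKM in all polysomes (departure 1.48). SmD3 (2R:8056382-8057366), a core protein of the splicing snRNPs, had 111 RPKM in large polysomes and 76.3 RPKM in all polysomes (departure 1.42). All 5 had a higher density in large polysomes than in all polysomes, although the trend at their length lay between 0.473 and 0.778.

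The other named genes above had CDSs of 540 nt or more. trsn (2R:6366599-6367543), the RNA-binding protein translin, had 183 RPKM in large polysomes and 81.9 RPKM in all polysomes (341 and 185 reads, departure 1.46). regucalcin (X:11909552-11911004), a calcium-binding protein, was the most deeply read of the 15 and had 489 RPKM in large polysomes and 202 RPKM in all polysomes (1232 and 619 reads), a ratio of 2.42 (95% counting interval 2.19 to 2.67) where the length trend gave 0.928. Las (3L:20423843-20425360), the lipoic acid synthase of mitochondria, had 32.2 RPKM in large polysomes and 11.1 RPKM in all polysomes (departure 1.49). Hsp27 (3L:9377286-9377927), a small heat shock protein, had 55.2 RPKM in large polysomes and 27.8 RPKM in all polysomes (departure 1.41), and mRpL49 (X:12801221-12801824) had 50.1 RPKM in large polysomes and 28.4 RPKM in all polysomes (departure 1.47). Bx (X:18460729-18465302), a LIM-only regulator of transcription, had 23.9 RPKM in large polysomes and 9.10 RPKM in all polysomes (departure 1.38). Exn (3L:16973781-16987241), the exchange factor ephexin, had the longest CDS of the 15, with 16.3 RPKM in large polysomes and 5.97 RPKM in all polysomes (260 and 116 reads, departure 1.46). The 15 genes have CDSs of 336 to 6090 nt with a median of 708 nt, and had a footprint coverage, as a fraction of CDS length, of 0.322 to 1 in large polysomes and 0.347 to 1 in all polysomes. All 15 had more reads in large polysomes, yet in 7 of them these reads covered less of the CDS. Apart from vps24 these were ApepP (0.329 in large polysomes and 0.347 in all polysomes), Exn (0.322 and 0.404), Las (0.473 and 0.550), mRpL49 (0.722 and 0.883), trsn (0.982 and 0.996) and regucalcin (0.963 and 1). In these 7 the larger number of reads thus lay over a smaller part of the CDS. The same was found across the library, for 495 of the 625 genes above the trend with more reads in large polysomes (79.2%) and for 1140 of all 1320 such genes (86.4%). The part of this uneven coverage in the ratios was not tested.

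**Figure D2:**
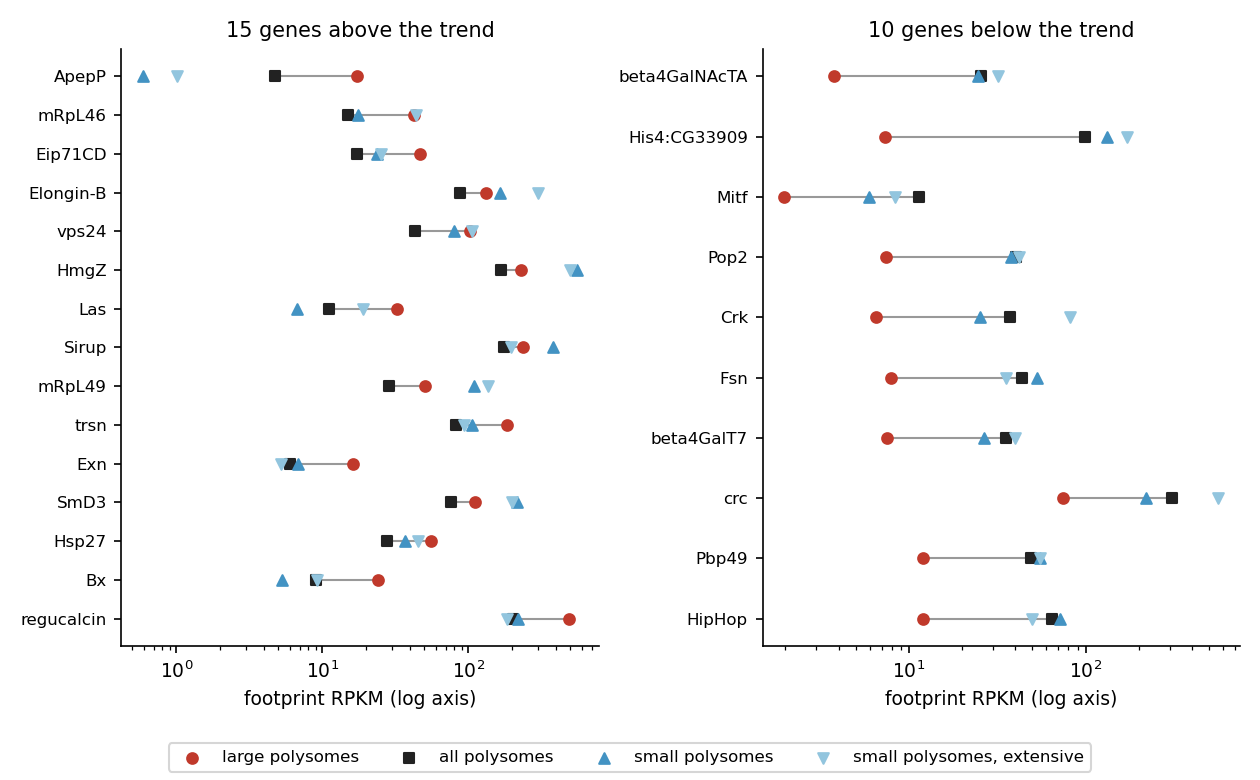
Footprint RPKM (log axis) of the 15 named genes farthest above the trend (left) and the 10 farthest below it (right) in the large polysome library (red circles), the all polysome library (black squares), the small polysome library (dark blue triangles) and its extensive replicate (light blue triangles). The red circle lies to the right of the black square for all 15 genes on the left, with ratios of 1.35 to 3.60, and to its left for all 10 on the right, with ratios of 0.0737 to 0.246.

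The 10 named genes farthest below the trend lay further from it than any named gene above with 100 or more reads. The RPKM limit bears on this, since it let in 560 genes by all polysomes alone and 154 by large polysomes alone. Below the trend, beta4GalNAcTA, His4:CG33909, Mitf, Pop2, Crk, Fsn and beta4GalT7 were kept by all polysomes alone. Above it, ApepP, Bx and Exn were kept by large polysomes alone. The part of the limit in the difference between the sides was not tested. beta4GalNAcTA (2R:10146669-10148134), a glycosyltransferase, had 3.77 RPKM in large polysomes and 25.6 RPKM in all polysomes (12 and 99 reads), a ratio of 0.147 (95% counting interval 0.0736 to 0.269) where the length trend gave 1.02. It thus had 0.144 times the ratio of a CDS of its length. Mitf (4:1222819-1226517), a transcription factor of lysosomal genes, had 1.97 RPKM in large polysomes and 11.5 RPKM in all polysomes (departure -2.52). Pop2 (3L:11993055-11994187), a deadenylase subunit of the CCR4-NOT complex, had 7.45 RPKM in large polysomes and 40.6 RPKM in all polysomes (departure -2.47). Crk (4:231081-233641), an SH2 and SH3 adaptor, had 6.54 RPKM in large polysomes and 37.3 RPKM in all polysomes (departure -2.34). Fsn (2R:9108787-9109674), an F-box protein, had 7.94 RPKM in large polysomes and 43.7 RPKM in all polysomes (departure -2.26). In these 5 genes the large polysome library held 12 to 21 reads, against 92 to 139 in the all polysome library.

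crc (2L:21311875-21319057), the Drosophila ATF4, a transcription factor of the stress response, was the most deeply read of the 10. It had 74.1 RPKM in large polysomes and 307 RPKM in all polysomes (223 and 1121 reads), a ratio of 0.242 (95% counting interval 0.208 to 0.279) where the length trend gave 1.04, with 220 RPKM in the first library of small polysomes and 562 RPKM in their extensive replicate. Its 5' leader holds a listed upstream open reading frame with 95.2 RPKM in large polysomes and 146 RPKM in all polysomes, covered over its whole length in all polysomes. The density of the crc CDS was thus below that of its upstream reading frame in large polysomes and above it in all polysomes.

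Of the others, beta4GalT7 (3R:20849092-20850188), a galactosyltransferase of proteoglycan synthesis, had 7.47 RPKM in large polysomes and 35.3 RPKM in all polysomes (departure -2.13). Pbp49 (2R:4017000-4018133), a subunit of the complex that binds snRNA gene promoters, had 12.1 RPKM in large polysomes and 49.2 RPKM in all polysomes (departure -2.08). HipHop (3L:18814407-18815072), a telomere capping protein, had 12.0 RPKM in large polysomes and 65.0 RPKM in all polysomes (departure -2.06). His4:CG33909 (2L:21419576-21419887), a copy of the histone H4 gene, had 7.33 RPKM in large polysomes and 99.5 RPKM in all polysomes (departure -2.64). Its reads covered a fraction of 0.0994 of the CDS in large polysomes and 0.0962 in all polysomes, and since the histone genes are repeated, its value is uncertain. None of the 25 genes named so far has a CDS that overlaps that of another gene in the genome. Copies of a gene at other positions, such as those of histone H4, are not covered by this.

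A gene with 0 reads in a library has no ratio and was counted apart. Of 13 such genes in large polysomes, 11 have bare CG numbers and the other two are grk, the TGF-alpha-like ligand of the oocyte, and pre-mod(mdg4)-X. grk had 0 reads in large polysomes and 31 reads (10.9 RPKM) in all polysomes, which with 3 reads as the limit of a count of 0 is at least 8.50-fold lower in large polysomes. CG11562 had 0 and 43 reads, at least 11.8-fold lower. In all polysomes CG32284 alone had 0 reads, with 12 reads in large polysomes, at least 4.86-fold higher there.

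The departures were next read by gene function, in 21 lists whose members were chosen by name. Pairs of RPKM values written with "against" give large polysomes and then all polysomes. Subunits of the proteasome, which degrades ubiquitin-tagged proteins, mostly lay above the trend. Of 33 measured subunits 22 were above and 0 below, against 12.6% above and 15.8% below over all genes, and their median departure was 0.73, against 0.00 over all genes. Prosbeta5, a catalytic subunit of the core particle, had 551 RPKM in large polysomes and 343 RPKM in all polysomes (departure 0.84). Prosbeta4 had 168 against 109 RPKM (departure 1.13), Prosalpha7 had 219 against 118 RPKM (1.10) and Prosalpha2 had 299 against 287 RPKM (0.37, within 1.5-fold of the trend). The 14 core subunits (10 above, median 0.71, range 0.33 to 1.13) and the 19 subunits of the regulatory particle (12 above, median 0.75, range -0.30 to 1.05) gave similar values, although the core subunits are encoded by CDSs of 606 to 849 nt and those of the regulatory particle by CDSs of up to 3090 nt.

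Chaperones, which fold other proteins, showed the same direction. Of 18 measured 12 were above (66.7%, against 12.6% over all genes) and 0 below, with a median of 0.64 and no departure under 0.27. Hsp26, a heat shock gene, was not counted because it missed the 10 RPKM limit. It had 2.43 RPKM in large polysomes and 9.999 RPKM in all polysomes. The median of the list was 0.63 with no RPKM filter. With the initial and the extensive library of small polysomes in place of all polysomes, which leaves the large polysome library the same, the medians were 1.17 and 1.49 for chaperones, 1.09 and 1.41 for proteasome subunits and 1.06 and 1.46 for actins and tubulins. Hsc70-4, the constitutive Hsp70 of the cytosol, had 2035 RPKM in large polysomes and 1192 RPKM in all polysomes (departure 0.81). Hsp60 of the mitochondrial matrix had 505 against 246 RPKM (1.07), while Hsp83, the Drosophila Hsp90, had 2105 against 1745 RPKM (0.27, within 1.5-fold of the trend). The 6 measured genes matched by name to the chaperonin CCT, which folds actin and tubulin, had a median of 0.62 with 5 above. These 5, named after their values were seen, were Tcp-1zeta (1.01), Cct5 (0.66), Cctgamma (0.63), Tcp-1eta (0.62) and T-cp1 (0.59). Any CCT subunits with other symbols are not among the 6. Actins and tubulins were themselves above in 6 of 12 cases (50.0%, against 12.6% over all genes), with a median of 0.58. alphaTub84B had 2298 RPKM in large polysomes and 1531 RPKM in all polysomes (departure 0.60), alphaTub84D had 523 against 323 RPKM (0.71) and betaTub97EF had 42.7 against 19.4 RPKM (1.15). Act5C, a cytoplasmic actin with 1 of the 3 highest densities in large polysomes, had 4825 against 3260 RPKM (0.51, just within 1.5-fold). Actin and tubulin genes are near copies of each other. Footprints covered a fraction of 0.999 to 1 of the CDSs of Act5C, alphaTub84B and alphaTub84D in both libraries. For betaTub97EF the coverage was 0.408 in large polysomes (154 reads) and 0.378 in all polysomes (85 reads). The paper states that it kept uniquely mapped reads only. Whether the deposited values of near copies hold reads of shared stretches was not tested, so the values of single copies are uncertain.

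Large cytoskeletal and motor proteins, whose CDSs had a median of 6927 nt, lay above in 4 of 15 cases and below in none, with a median of 0.35. The 4 were cher, the Drosophila filamin (88.2 against 52.5 RPKM, departure 0.75), Vinc, which links adhesions to actin (124 against 77.0 RPKM, 0.72), kst, a beta-heavy spectrin (108 against 67.4 RPKM, 0.68), and shot, a spectraplakin (61.4 against 39.0 RPKM, 0.66). kst and shot were chosen after their values were seen. alpha-Spec had 258 against 183 RPKM (0.50) and zip, the non-muscle myosin heavy chain, 264 against 277 RPKM (-0.06), both within 1.5-fold. The extracellular matrix list had 0 of 8 above and 0 below and a median of 0.31. Its members included Glt (745 against 596 RPKM, 0.38), Tig (211 against 153 RPKM, 0.46), Pxn (765 against 702 RPKM, 0.19) and BM-40-SPARC (1530 against 1383 RPKM, 0.27).

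Among the enzymes of energy metabolism and ion transport, glycolytic enzymes had 3 of 12 above and 0 below (median 0.38, 0.17 with 50 or more RPKM). The 3 were Gapdh1 (489 against 338 RPKM, departure 0.62), the mutase Pglym78 (144 against 96.7 RPKM, 0.78) and lactate dehydrogenase, ImpL3 (157 against 106 RPKM, 0.65), whereas the aldolase Ald had 469 against 412 RPKM (0.13). Subunits of the vacuolar ATPase, the proton pump of lysosomes, had 3 of 18 above (16.7%, against 12.6% over all genes) and 0 below (median 0.42, 0.19 with 50 or more RPKM). These were Vha16-1, the proton-carrying ring subunit (1224 against 1016 RPKM, 1.08), Vha55 (484 against 282 RPKM, 0.77) and Vha44 (56.1 against 32.7 RPKM, 0.80), and Vha26 had 441 against 411 RPKM (0.45). Subunits of oxidative phosphorylation had 3 of 23 above and 1 below (median -0.05). The ATP synthase subunits blw (alpha, 1037 against 507 RPKM, 1.00) and ATPsyn-beta (1555 against 935 RPKM, 0.70) and the complex I subunit ND75 (140.3 against 84.4 RPKM, 0.73) were above, ATPsyn-gamma (1104 against 1121 RPKM, 0.11) was within 1.5-fold, and ATPsyn-Cf6 (133 against 431 RPKM, -0.59), named after its value was seen, was below. Subunits of 1 enzyme complex thus lay on both sides of the trend.

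Cytosolic ribosomal proteins, which are encoded by short mRNAs, had negative departures in 66 of 81 cases. Of the 81 genes 14 were below (17.3%, near the 15.8% over all genes) and 1 above (1.23%, against 12.6%), and the median departure was -0.28 (-0.20 and -0.062 with the initial and the extensive library of small polysomes in place of all polysomes). RpL5 had 1913 RPKM in large polysomes and 3094 RPKM in all polysomes (departure -0.56) and RpS23 had 1327 against 3046 RPKM (-0.27), both within 1.5-fold of the trend. RpL30 had 207 against 803 RPKM (-0.87) and RpS15 468 against 1561 RPKM (-0.84). The gene above was RpL41 (845 against 1186 RPKM, 0.68), whose CDS of 78 nt is shorter than the first bin median of the trend and which was named after its value was seen. The 47 measured large subunit genes (9 below, median -0.31) and the 34 small subunit genes (5 below, median -0.26) gave close values. Mitochondrial ribosomal proteins had 15 of 75 above and 5 below (median 0.16, -0.07 with the initial small polysome library in place of all polysomes). Those below, named after their values were seen, were mRpL33 (-2.07), mRpS21 (-1.62), mRpL30 (-1.56), mRpL13 (-1.30) and mRpL51 (-0.76). The range within that list was from -2.07 to 1.71, and its members of highest density in all polysomes, mRpL28 (89.7 against 131 RPKM, -0.42) and mRpL17 (83.9 against 124 RPKM, 0.12), were within 1.5-fold of the trend. The difference between the lists was not tested.

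The remaining translation machinery was close to the trend. Initiation factors had 5 of 27 above (18.5%, against 12.6% over all genes) and 0 below (median 0.02). Those above were eIF-2alpha, the regulated subunit of eIF2 (216 against 145 RPKM, departure 0.62), eIF2B-gamma of its exchange factor (33.1 against 21.3 RPKM, 0.65) and, named after their values were seen, eIF-1A (0.61), eIF4AIII (0.59) and eIF4E-6 (17.5 against 10.2 RPKM, 1.48). The helicase eIF-4a had 901 against 963 RPKM (-0.13). Of 7 elongation factors 0 were above and 1 below (14.3%, near the 15.8% over all genes, median -0.11). Ef1alpha48D, which delivers aminoacyl-tRNA and had the highest density of all genes in both libraries, had 8025 against 6930 RPKM (0.22), and Ef2b, the translocase, had 2613 against 2691 RPKM (-0.02). eIF-5A, which is held in both lists, had 787 against 1825 RPKM (-0.40). The gene below was Ef1alpha100E (34.6 against 76.3 RPKM, -1.14), another gene for the same factor, which had 2.21 RPKM in total mRNA. Its 126 reads in large polysomes covered a fraction of 0.0439 of the CDS and its 338 reads in all polysomes 0.0871, so its value is uncertain. tRNA synthetases had 0 of 21 above and 1 below (4.76%, against 15.8% over all genes, median 0.15). That gene was Aats-phe (15.1 against 24.4 RPKM, -0.68), and Aats-ala had 220.1 against 178 RPKM (0.34), Aats-thr 173 against 199 RPKM (-0.20) and Aats-leu 14.4 against 21.5 RPKM (-0.55).

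Lists of the secretory pathway and the nucleus were mixed. Of 22 genes for ER translocation and folding 3 were above (13.6%, near the 12.6% over all genes) and 2 below (9.09%, against 15.8%, median 0.21). Hsc70-3, the ER chaperone BiP, had 1440 RPKM in large polysomes and 956 RPKM in all polysomes (departure 0.63), Srp14 of the signal recognition particle had 62.3 against 76.0 RPKM (0.80), and the calreticulin gene Crc, named after its value was seen, had 755 against 487 RPKM (0.60). ERp60 had 891 against 657 RPKM (0.43). Below were Gtp-bp, an SRP receptor subunit (74.3 against 131 RPKM, -0.76), and Sec61gamma of the translocon (9.20 against 115 RPKM, -2.47), also named after its value was seen. Splicing snRNP proteins and nucleoporins had 6 of 30 above and 1 below (median 0.16). snRNP-U1-70K had 85.7 against 39.1 RPKM (1.15), Sec13 334 against 280.1 RPKM (0.23) and SmF 62.8 against 181 RPKM (-0.36), and the gene below was SmG (29.7 against 122 RPKM, -0.87), named after its value was seen. The 7 genes of the MCM list, chosen by name for the helicase that unwinds DNA for replication, had 0 above and 0 below (median 0.24). Mcm5 had 53.3 against 38.4 RPKM and Mcm2 50.5 against 62.4 RPKM.

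Lists of regulators followed, whose shares were not tested against the 12.6% above and 15.8% below over all genes. Of 20 cell cycle regulators 2 were above (10.0%) and 1 below (median 0.23, 0.02 with 50 or more RPKM). Incenp of the chromosomal passenger complex had 102 RPKM in large polysomes and 66.5 RPKM in all polysomes (departure 0.62), fzy, named after its value was seen, had 75.7 against 48.2 RPKM (0.59), and the cyclin CycD, which was below, had 23.6 against 42.4 RPKM (-0.84). The Cdc25 phosphatase stg had 324 against 376 RPKM (-0.22) and CycG 224 against 209.9 RPKM (0.10). Of 18 genes of insulin and TOR signalling, the growth pathway that senses nutrients, 0 were above and 3 below (16.7%, median -0.23). These were Lst8, a subunit of the TOR complexes (11.7 against 32.3 RPKM, -1.35), the amino acid transporter mnd (29.2 against 56.8 RPKM, -0.98) and, named after its value was seen, the eIF4E-binding protein Thor (17.2 against 65.5 RPKM, -0.88). S6k, with 215 against 221 RPKM (-0.04), and Pi3K92E, with 70.2 against 98.0 RPKM (-0.41), were within 1.5-fold.

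Of 21 genes of Toll and IMD immunity 0 were above and 4 below (19.0%, near the 15.8% over all genes, median -0.19). GNBP1, a recognition protein of bacteria, had 6.18 RPKM in large polysomes and 16.7 RPKM in all polysomes (departure -1.45), tub, an adaptor of the Toll receptor, had 18.9 against 38.6 RPKM (-1.02), and PGRP-LA and dl, named after their values were seen, had departures of -2.10 and -0.63. The NF-kappaB factor Rel had 78.9 against 96.4 RPKM (-0.25) and the Toll ligand spz departed by 0.19. Transcription factors of growth and stress had 0 of 18 above and 3 below (16.7%, near the 15.8% over all genes, median -0.08). Beside crc these were Xbp1, the factor of the unfolded protein response (536 against 887 RPKM, -0.75), and Atf-2 (-0.91), named after its value was seen. yki had 82.4 against 117 RPKM (-0.55) and kay, the Drosophila Fos, 451 against 398 RPKM (0.18). Small RNA and mRNA decay factors had 3 of 22 above (13.6%, near the 12.6% over all genes) and 2 below (9.09%, against 15.8%, median 0.02). Smg6, an endonuclease of nonsense-mediated decay, had 25.4 against 46.8 RPKM (-0.85), Not1, the CCR4-NOT scaffold, 206 against 269.8 RPKM (-0.39) and tsu of the exon junction complex 88.0 against 174 RPKM (-0.23). r2d2, a partner of Dicer-2, was the other gene below (-1.29), and loqs (0.73) and me31B (0.63) were above, all named after their values were seen. The member of that list farthest above was pont (102 against 51.0 RPKM, 1.01), an ATPase of chromatin remodelling complexes rather than a decay factor.

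**Figure D3:**
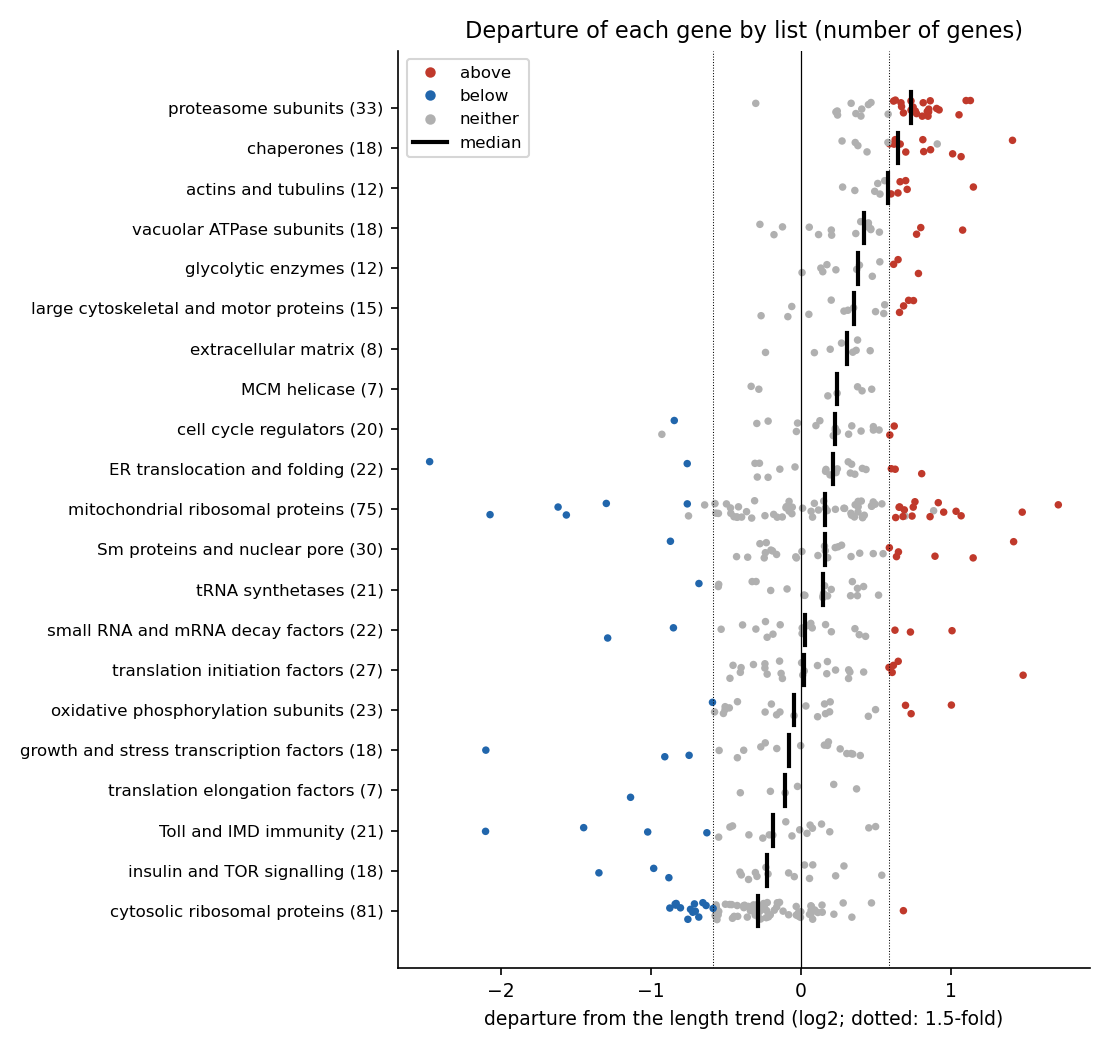
Departure from the length trend (log2) of each measured gene in the 21 lists, ordered by median from top to bottom, with the number of genes in brackets, genes above the trend in red, genes below it in blue and the list median as a black bar. The medians run from 0.73 for proteasome subunits to -0.28 for cytosolic ribosomal proteins, and no measured proteasome subunit, chaperone, actin or tubulin is below.

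To ask which genes have most of their footprints on mRNAs with 7 or more ribosomes, the all polysome density was written as a weighted sum of the large and the small polysome densities, an estimate added after the data were seen. Over 3713 genes with 200 or more reads the weights were 0.669 for large and 0.354 for small polysomes, and the sum came within 1.5-fold of the measured density for 82.5% of these genes. With the extensive small polysome library the weights were 0.683 and 0.262, and 82.9% came within 1.5-fold. The estimated share of a gene's footprints in large polysomes had a median of 72.6%, and it was over 50% for 4607 of 5793 genes (79.5%). It followed length, with a median of 30.6% for genes encoding up to 100 amino acids, 44.0% up to 250, 70.4% up to 500, 79.1% up to 1000 and 81.0% above. Genes above the trend had a median share of 80.8% and genes below it 49.8%, a description only, since both measures use the same large polysome values.

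Of the 15 named genes farthest above the trend, 12 had an estimated share over 50%, from 53.9% for Sirup to 98.2% for ApepP. For each of these 15 the weighted sum was more than 1.5-fold over the measured all polysome density. For each of the 10 genes farthest below it was more than 1.5-fold under that density. The sum thus fitted none of these 25 genes within 1.5-fold, and their shares are uncertain. The shares were 80.9% for regucalcin, 76.5% for trsn, 71.1% for vps24 and 60.3% for Elongin-B. Elongin-B and Sirup have CDSs of 357 nt and HmgZ one of 336 nt, which leave little room for 7 ribosomes. The shares of these short genes are values of the weighted sum and no count of ribosomes. The 3 short genes SmD3 (49.3%), mRpL49 (46.3%) and HmgZ (43.7%) stood above the trend and still had under 50%, and with the extensive small polysome library 14 of the 15 exceeded 50%, mRpL49 being at 48.7%. Of the 10 genes farthest below, none reached 50%, the highest being crc at 38.9% (25.6% with the extensive library). By list, the median share was 88.8% for chaperones, 85.4% for actins and tubulins, 80.5% for proteasome subunits and 82.7% for glycolytic enzymes, and it was over 50% for every measured gene of these 4 lists, as also of the extracellular matrix, large cytoskeletal and motor protein, MCM helicase, cell cycle and tRNA synthetase lists, with median CDSs of 1587 nt or more. It was 47.2% for mitochondrial ribosomal proteins (33 of 75 genes over 50%), 40.5% for oxidative phosphorylation subunits (8 of 23) and 36.1% for cytosolic ribosomal proteins (7 of 81). By length class, the named genes farthest above the trend included ctp, the dynein light chain (164 against 153 RPKM, departure 1.27, share 57.2%), and Cks30A, a subunit of cyclin-dependent kinases (77.9 against 83.6 RPKM, 1.07, 68.7%), among genes encoding up to 100 amino acids (CDSs of 270 and 225 nt, which leave little room for 7 ribosomes, so that these shares are values of the weighted sum and no count of ribosomes), NT5E-2 (14.3 against 6.60 RPKM, 1.18, 73.5%) among those up to 1000, and Eps-15, an endocytic scaffold (60.0 against 26.7 RPKM, 1.26, 85.0%), among longer ones. Nplp2, a secreted peptide precursor and 1 of the 3 highest densities in all polysomes, had 1874 RPKM in large polysomes and 3428 RPKM in all polysomes and an estimated share of 40.8%.

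**Figure D4:**
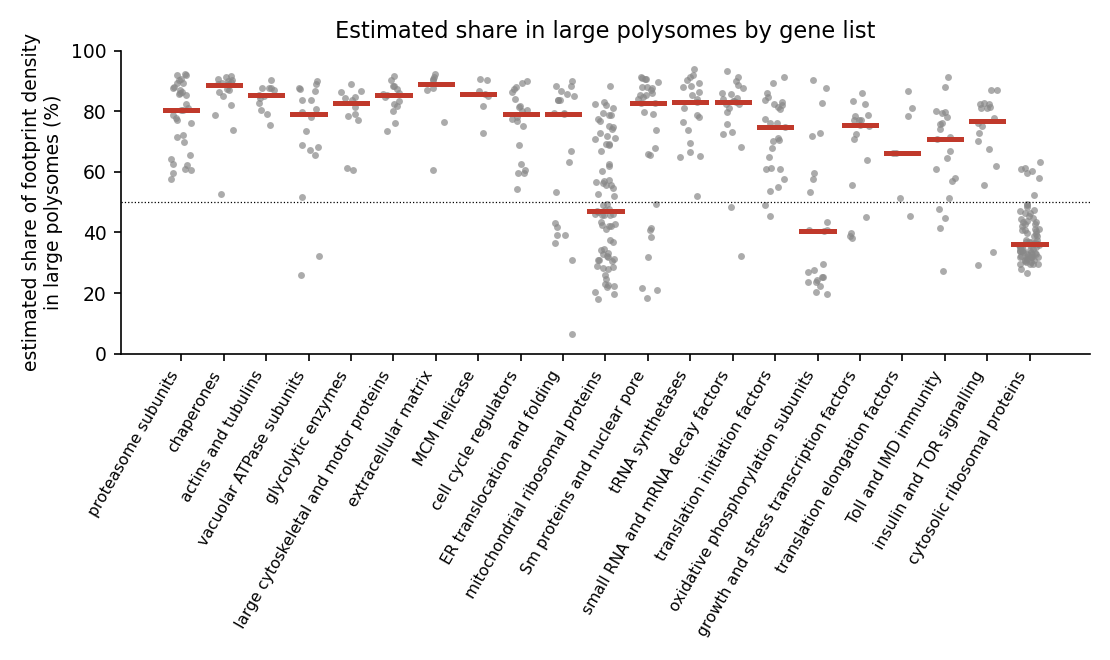
Estimated share of each gene's footprint density that lies in large polysomes (%, y axis) in the 21 lists, with genes as grey points and list medians as red bars. Every gene of 9 lists, among them proteasome subunits, chaperones, actins and tubulins, and glycolytic enzymes, lies over the dotted line at 50%, and most cytosolic ribosomal proteins lie under it, with a median of 36.1%.

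The departures were also set beside features that the choice of genes did not use. By chromosome, genes of the small heterochromatin-rich chromosome 4 stood apart. Of its 42 genes 19 were below the trend (45.2%) and 2 above, and their median departure was -0.54 (95% order-statistic interval across genes -0.76 to -0.04). On the other 5 arms the medians lay between -0.04 and 0.08 and the shares below between 13.1% and 18.0%. Mitf and Crk are on this chromosome, as are 2 genes above the trend, ATPsyn-beta and Arf102F, a small GTPase of vesicle traffic that was named after its value was seen (147 against 139.7 RPKM, departure 0.73). Chromosome 4 genes had a median of 1.94 times their total mRNA RPKM in large polysomes, 3.38 times in all polysomes, 1.11 times in the first library of small polysomes and 2.57 times in their extensive replicate, where genes of the other arms had 0.980, 1.06, 0.808 and 1.01 times. The level of chromosome 4 genes thus differed between the 2 small polysome libraries as well, and with the initial small polysome library in place of all polysomes their median departure was 0.20. The part of differences between experiments in the chromosome 4 values was not tested.

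**Figure D5:**
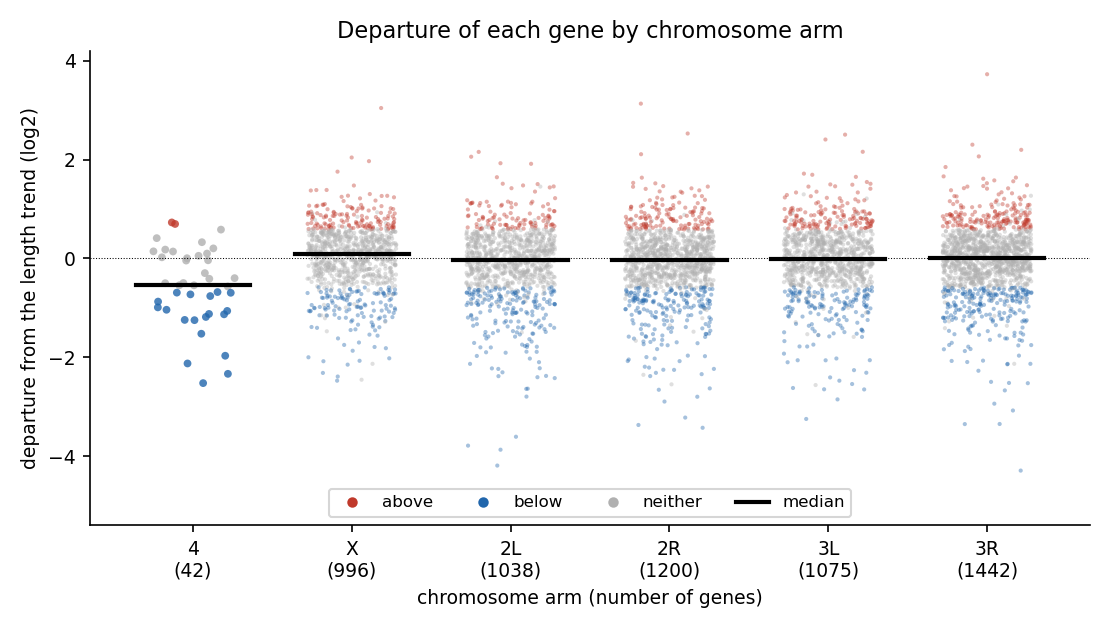
Departure from the length trend (log2, y axis) of each gene by chromosome arm (number of genes in brackets), with genes above the trend in red, genes below it in blue and medians as black bars. The median of chromosome 4 is -0.54, while those of the other arms lie between -0.04 and 0.08.

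Abundant mRNAs lay slightly higher. In the fifth of genes with the most total mRNA (82.5 RPKM or more) the median departure was 0.18, with 223 of 1159 genes above (19.2%) and 103 below (8.89%). In the fifth with the least (up to 15.1 RPKM) it was -0.09, with 133 of 1159 above (11.5%) and 233 below (20.1%), and in the fifth next to it -0.12. By number of coding exons the medians were 0.04 for the 747 genes with a single coding exon and -0.02 for the 585 with 9 or more, while the shares above were 15.5% and 7.69% and the shares below 18.6% and 10.8%. The median CDS of these groups was 936 and 3801 nt long. Genes with a footprinted upstream open reading frame (10 or more RPKM and a coverage fraction of 0.5 or more in all polysomes) were 1313, of which 106 were above (8.07%) and 252 below (19.2%), with a median of -0.06. The 3247 genes with no listed upstream reading frame had 482 above (14.8%) and 461 below (14.2%) and a median of 0.04. Among CDSs of 1000 nt or more the medians were -0.06 and 0.04 as well. These upstream reading frames were chosen in the all polysome library, which is also the denominator of the ratio, and the genes with them had longer CDSs (a median of 1893 nt, against 1203 nt). The order-statistic intervals across genes were -0.10 to -0.03 for the genes with a footprinted upstream reading frame and 0.01 to 0.06 for those with none listed.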

How the data were processed

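Ribosome footprints of S2 cells were measured in 4 libraries and total cytoplasmic mRNA in 1 sample, and the large and all polysome libraries are compared here. Reads were clipped and trimmed by the authors, those from rRNA and tRNA were filtered out using Bowtie, TopHat placed the remainder on FlyBase Release 5.50 (up to 2 mismatches, unique matches), and the authors deposited RPKM per CDS, scaled by length and by the reads mapped to the genome. The deposited coverage is the fraction of a CDS that footprints cover, from 0 to 1. The versions of these tools are not given in the sources used here.

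Reads were recovered from the steps between RPKM values and came out whole (within 0.01) for 100% of CDSs above 0. RPKM was missing for 244 of 28529 CDSs, which were left out. Symbols are those of the table. NimC1 was not matched, and 11021 of 11587 transcripts with upstream reading frames matched a gene by identifier in the Ensembl BDGP6 annotation, of which no coordinates were used. The departure, the rule for counts above and below, and the counting intervals (Clopper-Pearson) are as given above. Medians carry order-statistic intervals, which cover the spread across genes. On simulated data with 2-fold changes the rule recovered 93.0% of raised and 90.0% of lowered genes, and it called 0.93% of unchanged ones, which carried counting noise only, so that this share leaves out any spread between experiments. Named genes were the 15 farthest above and 10 farthest below with 100 or more reads, up to 4 per list by density and departure, 2 per length class and the 3 of highest density per library. Members, lists and rule were chosen with earlier results of these data known. With 1 library per fraction no p-value was computed. Alternatives were a LOWESS trend (span 0.3), 40 bins, a pseudocount of 1 RPKM, a minimum of 50 RPKM or none, the shortest CDS, either small polysome library in place of all polysomes, a 2-fold limit and no counting interval. The table of ORFs in ncRNAs was not used here. Python 3.11.15, numpy 2.4.6, scipy 1.17.1, pandas 2.3.3 and statsmodels 0.14.6 were used.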

Additional observations from a re-analysis of the deposited data

How the results depend on the processing

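No paired analysis was possible because each fraction has 1 library. The counts of 730 genes above and 913 below the trend stayed within 1.5 times under the LOWESS trend, 40 bins, a pseudocount, no RPKM filter, the shortest CDS and no counting interval. They were 230 and 361 with 50 or more RPKM, where fewer genes (2365) were compared, and 191 and 426 with a 2-fold limit. Only 9 of the 15 named genes above and 3 of the 10 below reached 50 RPKM in either library, and these kept their call. In place of all polysomes, the initial small polysome library gave 1388 and 1427, and the extensive one 1493 and 1534, against the same large polysome library. Of the 15 and 10 named genes, 13 and 9 were still called on their side with either small polysome library, mRpL49 and Exn no longer being above, and Mitf lay under 10 RPKM in both libraries compared. Spearman's rho of ratio and length over all genes was 0.29, and it was 0.39 with 50 or more RPKM, 0.25 with no filter, 0.66 with the initial and 0.71 with the extensive small polysome library.

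Of 168 list medians under the alternatives, 139 stayed inside the order-statistic interval of the reported value. Some of these still turned sign, with -0.18 for initiation factors, -0.03 for tRNA synthetases and -0.0078 for ER translocation and folding with 50 or more RPKM, -0.07 for mitochondrial ribosomal proteins and 0.35 for elongation factors with the initial small polysome library, -0.0059 for small RNA and mRNA decay factors with the shortest CDS and 0.0025 for oxidative phosphorylation subunits with LOWESS. With 50 or more RPKM glycolytic enzymes were at 0.17, vacuolar ATPase subunits at 0.19 and insulin and TOR signalling at -0.36, under cytosolic ribosomal proteins at -0.34. With 50 or more RPKM the median departures outside it were 0.55 for proteasome subunits, 0.48 for chaperones and 0.35 for actins and tubulins. With the initial small polysome library they were 1.17 for chaperones, 1.09 for proteasome subunits, 1.06 for actins and tubulins, 0.94 for extracellular matrix, 0.86 for vacuolar ATPase subunits, 0.63 for glycolytic enzymes, 0.52 for MCM helicase, 0.48 for tRNA synthetases, 0.42 for cell cycle regulators, 0.38 for Sm proteins and nuclear pore, -0.20 for cytosolic ribosomal proteins and -0.47 for oxidative phosphorylation subunits. With the extensive one they were 1.49 for chaperones, 1.46 for actins and tubulins, 1.41 for proteasome subunits, 1.28 for glycolytic enzymes, 0.89 for MCM helicase, 0.62 for extracellular matrix, 0.57 for vacuolar ATPase subunits, 0.54 for tRNA synthetases, 0.50 for cell cycle regulators, 0.41 for Sm proteins and nuclear pore, 0.41 for ER translocation and folding, 0.37 for small RNA and mRNA decay factors, -0.062 for cytosolic ribosomal proteins and -0.60 for Toll and IMD immunity. The causes were not tested. The median of chromosome 4 genes, -0.54, reversed to 0.20 with the initial small polysome library, lay between -0.43 and -0.56 under the alternatives that kept all polysomes, and was -0.73 with the extensive library. These chromosome 4 values were added after the data were seen. Depth limits the genes below, since the 10 named ones rest on 6 to 223 reads in large polysomes.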

Other observations

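Genes outside the naming rule gave some of the widest departures, and they are named here after their values were seen. TwdlF, a Tweedle cuticle protein, had 11.8 RPKM in large polysomes and 0.883 RPKM in all polysomes (33 and 3 reads), the largest departure above the trend of all 5793 genes (3.72). blp, a component of mitochondrial protein import, had 54.5 RPKM in large polysomes and 22.8 RPKM in all polysomes (departure 2.20). Bem46, a predicted hydrolase, had 1.87 RPKM in large polysomes and 23.7 RPKM in all polysomes (5 and 77 reads, departure -3.61). The largest departure below was that of CG7168, with 2 and 59 reads and 1.09 RPKM in large polysomes and 26.3 RPKM in all polysomes (-4.29). Each rests on fewer than 100 reads in the libraries together.

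Some genes differed more between the initial and the extensive small polysome library than between large and all polysomes. Zyx on chromosome 4 had 10.7 RPKM in the first library of small polysomes and 66.6 RPKM in their extensive replicate, beside 15.2 RPKM in large polysomes and 19.4 RPKM in all polysomes (departure -0.30). Ef1alpha100E had 9.95 and 56.3 RPKM in the 2 small polysome libraries, values that are uncertain because its reads in large and all polysomes covered little of the CDS.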
